A study of Rattus norvegicus with 6 samples.

Results

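The genes described here are those of salt reabsorption along the renal tubule, with the gene of the urinary protein uromodulin. They were taken from the deposited count table by symbol, and the 9 symbols each matched a single gene among 31368. Slc9a3 stands for the proximal tubule. Slc12a1, Bsnd and Umod stand for the thick ascending limb, Slc12a3 for the distal convoluted tubule, and Scnn1a, Scnn1b and Scnn1g for the collecting duct. Stk39, whose kinase acts on the carriers of the thick ascending limb and the distal convoluted tubule, was placed with Slc12a3. The RNA came from kidneys of Sprague-Dawley rats, male and wild-type (WT), and the series gives 8 weeks as their age. A sham group (Sham, 3 libraries) was compared with a group modelling chronic kidney disease (CKD, 3 libraries). How the disease was induced, what the sham rats underwent and which part of the kidney was sampled are not given in the sources used here. It is not stated whether libraries came from separate animals, so every p-value reflects only how these libraries differ, and that spread may be technical.

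The tubule recovers most of the sodium and chloride that the glomerulus filters, and each segment does so with its own apical carrier while the sodium pump removes sodium on the basolateral side. The proximal tubule exchanges sodium for protons, the thick ascending limb takes up sodium, potassium and chloride together, the distal convoluted tubule takes up sodium with chloride, and the collecting duct lets sodium in through the epithelial sodium channel ENaC under the control of aldosterone. Loop diuretics block the carrier of the thick ascending limb, thiazides that of the distal convoluted tubule, and amiloride ENaC.

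In CKD, 8 of these 9 genes had a lower fitted level than in Sham and Slc9a3 a slightly higher one, but 0 of 9 passed the threshold of the test (edgeR's quasi-likelihood test, Benjamini-Hochberg adjusted p under 0.05 over all 15371 genes tested; adjusted p from 0.159 for Stk39 to 0.823 for Slc9a3). Over all genes tested the share called was 3.82%. At an unadjusted p under 0.05 there was 1 of 9, Stk39. DESeq2 and limma-voom also called 0 of 9, with 3 and 1 at an unadjusted p under 0.05. Over all 15371 genes tested, 3655 had an unadjusted p under 0.05 in edgeR, 4281 in DESeq2 and 3638 in limma-voom. By adjusted p, DESeq2 called 2497 and limma-voom 195 of all genes tested. These counts over all genes also stand beside the gene lists below. The median log2 fold change of the 9 genes was -0.95, beside -0.01 over all genes tested. Of the 27 CKD values, 18 lay within the range of the 3 Sham libraries, 8 below it and 1 above it. After libraries were scaled, only Stk39 had groups that did not overlap, lower in CKD. By the same measure 12.4% of all genes tested did not overlap in that direction and 18.8% in the other.

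The Sham libraries differed widely from each other. All 9 genes had a larger standard deviation of log2 CPM in Sham than in CKD (CPM, the count divided by the library size after TMM scaling for composition), with a median of 1.13 against 0.28; among all genes tested 79.6% had the larger standard deviation in Sham, with medians of 0.48 and 0.22. Of the 9 genes, 6 were highest over all libraries in Sham 2, Umod and Slc12a1 in Sham 1, and Slc9a3 in CKD 3. The lowest library was CKD 1 for 5 of the 9, Sham 1 for 3 and Sham 2 for 1. Mitochondrial genes took 37.9% of counts in Sham 2, 14.4% in Sham 1, 15.3% in Sham 3 and 8.83% to 10.8% in CKD libraries. Libraries held 15918035 to 17503644 counts. The part of these library differences in the results below was not tested.

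**Figure D1:**
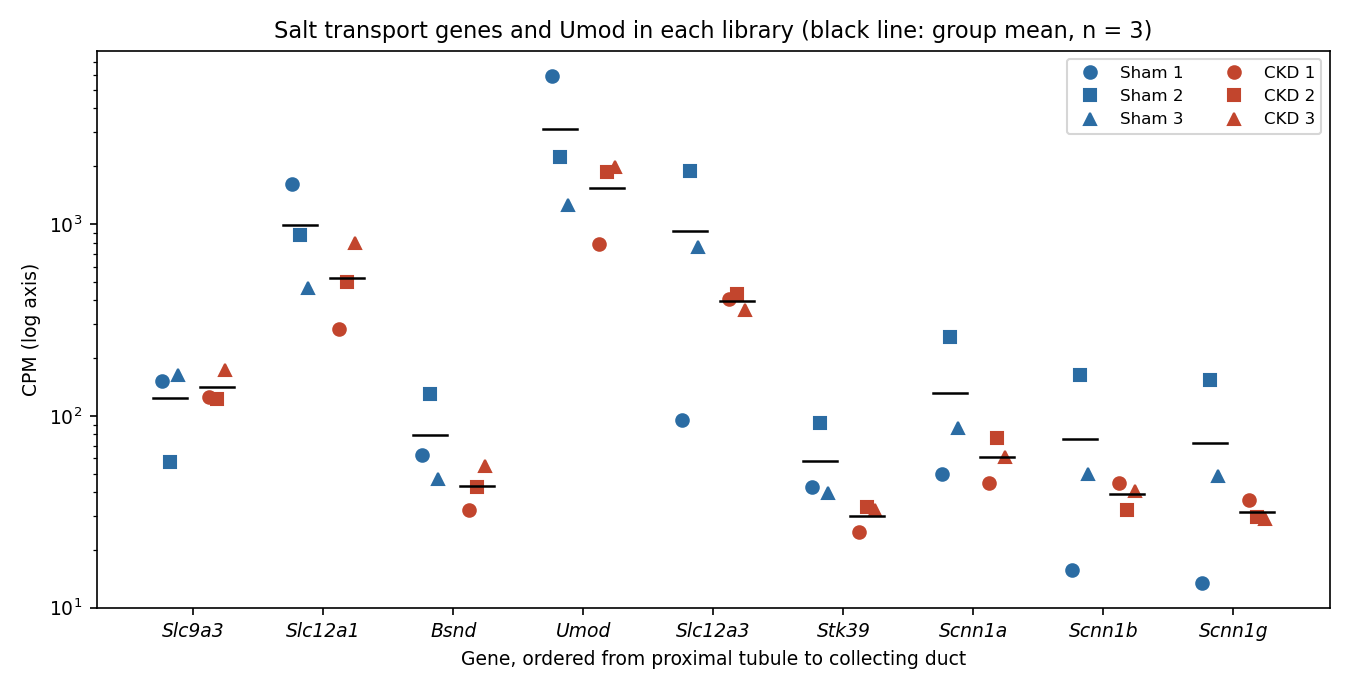
CPM of the 9 genes (vertical log axis) in each library, ordered from proximal tubule to collecting duct, with Sham in blue, CKD in red, a marker shape for each replicate number and a black line at each group mean. Sham libraries spread over 95.1 to 1893 CPM for Slc12a3, and the 3 CKD libraries lie between 354 and 430.

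In the proximal tubule, Slc9a3 encodes NHE3, the sodium-proton exchanger of the proximal brush border. The gene is listed on chromosome 1 from 29124674 to 29167417 (deposited coordinates, here and for the genes that follow; their build is uncertain). It stood at 153, 57.2 and 163 CPM in Sham 1, 2 and 3 and at 126, 123 and 173 CPM in CKD 1, 2 and 3. CKD 1 and CKD 2 thus lay between Sham 2 and Sham 1, and CKD 3 lay above every Sham library. Sham 2 was the lowest library. Means were 124 ± 58.3 and 141 ± 28.5 CPM (SD, n = 3 per group), and the log2 fold change was 0.18 ± 0.39 (SE; edgeR adjusted p = 0.823). Without Sham 2 the fold change turned to -0.20. The 10 proximal tubule markers, among them the endocytic receptor Lrp2 and the phosphate carrier Slc34a1, summed to 6270 CPM in Sham 2 against 14289 and 21218 CPM in Sham 1 and Sham 3 and 10259 to 14471 CPM in CKD, and 0 of the 10 were called (edgeR, DESeq2 and limma-voom; 0 at an unadjusted p under 0.05). In bulk tissue fewer cells of a type and less RNA per cell cannot be told apart. Measured against those markers within each library, the log2 level of Slc9a3 was higher in CKD by 0.19, less than the Sham standard deviation of 0.42 (exact permutation test, two-sided, p = 0.7).

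In the thick ascending limb, Umod encodes uromodulin, the most abundant protein of normal urine, and is listed on chromosome 1 from 173816339 to 173830302. It stood at 5897, 2233 and 1261 CPM in Sham and at 783, 1869 and 1976 CPM in CKD. Sham 1 stood far above the other libraries, and CKD 2 and CKD 3 lay between Sham 3 and Sham 2. Umod took 0.508% of all counts in Sham 1 (95% exact binomial interval 0.505% to 0.511%) and 0.113% in Sham 3 (0.111% to 0.114%), so that counting error is small beside the difference between these libraries; such intervals cover counting error only. The means of 3130 ± 2445 and 1543 ± 660 CPM differed by -1.02 ± 0.66 on the log2 scale (SE; edgeR adjusted p = 0.385). It was -0.23 without Sham 1 and -1.45 without Sham 3.

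Slc12a1 encodes NKCC2, the furosemide-sensitive sodium-potassium-chloride cotransporter, and is listed on chromosome 3 from 112406140 to 112482899. Its values were 1611, 872 and 465 CPM in Sham and 284, 499 and 794 CPM in CKD. The order of the Sham libraries was that of Umod, and CKD 1 was again the lowest library. The log2 fold change was -0.90 ± 0.55 (edgeR adjusted p = 0.362), and -0.39 without Sham 1. Umod and Slc12a1 thus varied together. The ratio of Umod to Slc12a1 counts, which no scaling of libraries can alter, was 3.66, 2.56 and 2.71 in Sham and 2.76, 3.74 and 2.49 in CKD, while each gene alone spanned a far wider range. The log2 difference in that ratio between the groups was 0.01, with standard deviations of 0.28 in Sham and 0.31 in CKD (exact permutation test, p = 1).

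Bsnd encodes barttin, a subunit of basolateral chloride channels in the thick ascending limb, the distal convoluted tubule and intercalated cells; it is listed on chromosome 5 from 121251774 to 121260571. It stood at 62.9, 130 and 46.6 CPM in Sham and at 32.5, 42.4 and 54.9 CPM in CKD. Here Sham 2, not Sham 1, was the highest library, and only CKD 3 lay within the Sham range. The log2 fold change was -0.88 ± 0.40 (edgeR adjusted p = 0.229), and -0.38 without Sham 2. Counts of Bsnd per count of Slc12a1 were 0.0390, 0.149 and 0.1002 in Sham and 0.115, 0.0849 and 0.0691 in CKD, so all CKD ratios lay inside the Sham range.

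The 9 thick ascending limb markers summed to 2270, 3203 and 1765 CPM in Sham and to 531, 892 and 1104 CPM in CKD, and this sum did not overlap between groups. The part of this difference in the levels of Umod, Slc12a1 and Bsnd was not tested beyond the ratios that follow. Most of it was Egf, the epidermal growth factor precursor, at 1819, 2864 and 1526 CPM in Sham and 310, 623 and 793 CPM in CKD (log2 fold change -1.85 ± 0.47; adjusted p = 0.0704, edgeR). Of the 9 markers 0 were called by edgeR and limma-voom, with 2 at an unadjusted p under 0.05, and 2 by DESeq2 (Egf and the claudin gene Cldn16). Against the mean log2 level of these markers, Slc12a1 was lower in CKD by 0.31, Umod by 0.30 and Bsnd by 0.24 on the log2 scale, each less than its Sham standard deviation of 0.42, 0.68 and 0.71 (exact permutation tests, p = 0.4, 0.7 and 0.7). Without Sham 1 the difference for Umod was 0.08, and without Sham 2 that for Bsnd was 0.14, both then higher in CKD.

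In the distal convoluted tubule, Slc12a3 encodes NCC, the thiazide-sensitive sodium-chloride cotransporter, and is listed on chromosome 19 from 10631393 to 10669091. It had the widest Sham spread of the 9 genes, with 95.1, 1893 and 755 CPM in Sham 1, 2 and 3, a 19.9-fold range. CKD libraries stood at 404, 430 and 354 CPM, a 1.22-fold range. All 3 CKD values lay inside the Sham range, below Sham 2 and Sham 3 and above Sham 1. The log2 fold change was -1.21 ± 0.85 (edgeR adjusted p = 0.428). Leaving out Sham 2 brought it to -0.13, and leaving out Sham 1 to -1.80 (edgeR adjusted p = 0.0517). With limma-voom, which averages log values, it was -0.40.

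Stk39 encodes SPAK, the kinase that phosphorylates and activates NCC and NKCC2 on the order of WNK kinases, and is listed on chromosome 3 from 52913585 to 53179060. It stood at 42.4, 91.4 and 39.8 CPM in Sham and at 24.8, 33.4 and 32.3 CPM in CKD. After TMM scaling every CKD library was below every Sham library. The margin was small to Sham 1 and Sham 3 and large to Sham 2. As a share of all counts the groups overlapped, with 0.00365%, 0.00764% and 0.00356% in Sham and 0.00295%, 0.00384% and 0.00365% in CKD. TMM factors were 0.837 to 0.893 in Sham and 1.13 to 1.19 in CKD. Means were 57.9 ± 29.1 and 30.2 ± 4.64 CPM and the log2 fold change -0.94 ± 0.35 (edgeR adjusted p = 0.159). Of the 19 alternative settings none called it; its fold change ran from -1.22 without Sham 3 to -0.49 without Sham 2, and its adjusted p from 0.0748 in DESeq2 to 0.432 without CKD 1.

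Sham 1 stood apart in the distal genes. The ratio of Slc12a3 to Slc12a1 counts was 0.0590 in Sham 1, against 2.17 and 1.62 in Sham 2 and Sham 3 and 1.43, 0.862 and 0.446 in CKD. Counts of Stk39 per count of Slc12a3 were 0.446 in Sham 1 and 0.0483 to 0.0911 in the other 5 libraries. Of the 8 tested markers of the distal convoluted and connecting tubule, 6 were lowest of all libraries in Sham 1 and highest in Sham 2, while Emx1 and S100g were not. The 9 listed markers summed to 228, 2190 and 806 CPM in Sham and to 544 to 628 CPM in CKD. Of the 8 that were tested 0 were called by edgeR and limma-voom, with 2 and 1 at an unadjusted p under 0.05, and 1 by DESeq2 (Klk1). The most abundant were the calcium binder Calb1, at 60.6, 895 and 344 CPM in Sham, and the kallikrein Klk1, at 78.9, 929 and 280 CPM. Pvalb, which marks the early part of this segment, had 0 counts in each of the 6 libraries, which allows up to 3 counts in each. That bound covers counting error only, and how well the annotation captures Pvalb was not tested. Podocyte markers also had their lowest sum in Sham 1 (201 CPM, with 336 to 755 CPM elsewhere), and medullary osmolyte genes their highest (795 CPM, with 517 to 594 CPM elsewhere). The osmolyte sum in Sham 1 held 293 CPM of Cryab, which stood at 23.4 to 69.5 CPM elsewhere, while Nfat5 was at its lowest there (105 CPM). Against the mean of the tested segment markers Slc12a3 was lower in CKD by 0.38 (Sham SD 0.91; exact permutation p = 0.5) and Stk39 by 0.84 (Sham SD 0.93; exact permutation p = 0.1, the smallest 3 against 3 libraries can give, with no overlap between groups). Without Sham 1 the difference for Stk39 was -0.31. The log2 ratio of Stk39 to these markers was 1.93 in Sham 1, 0.44 in Sham 2 and 0.22 in Sham 3.

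**Figure D2:**
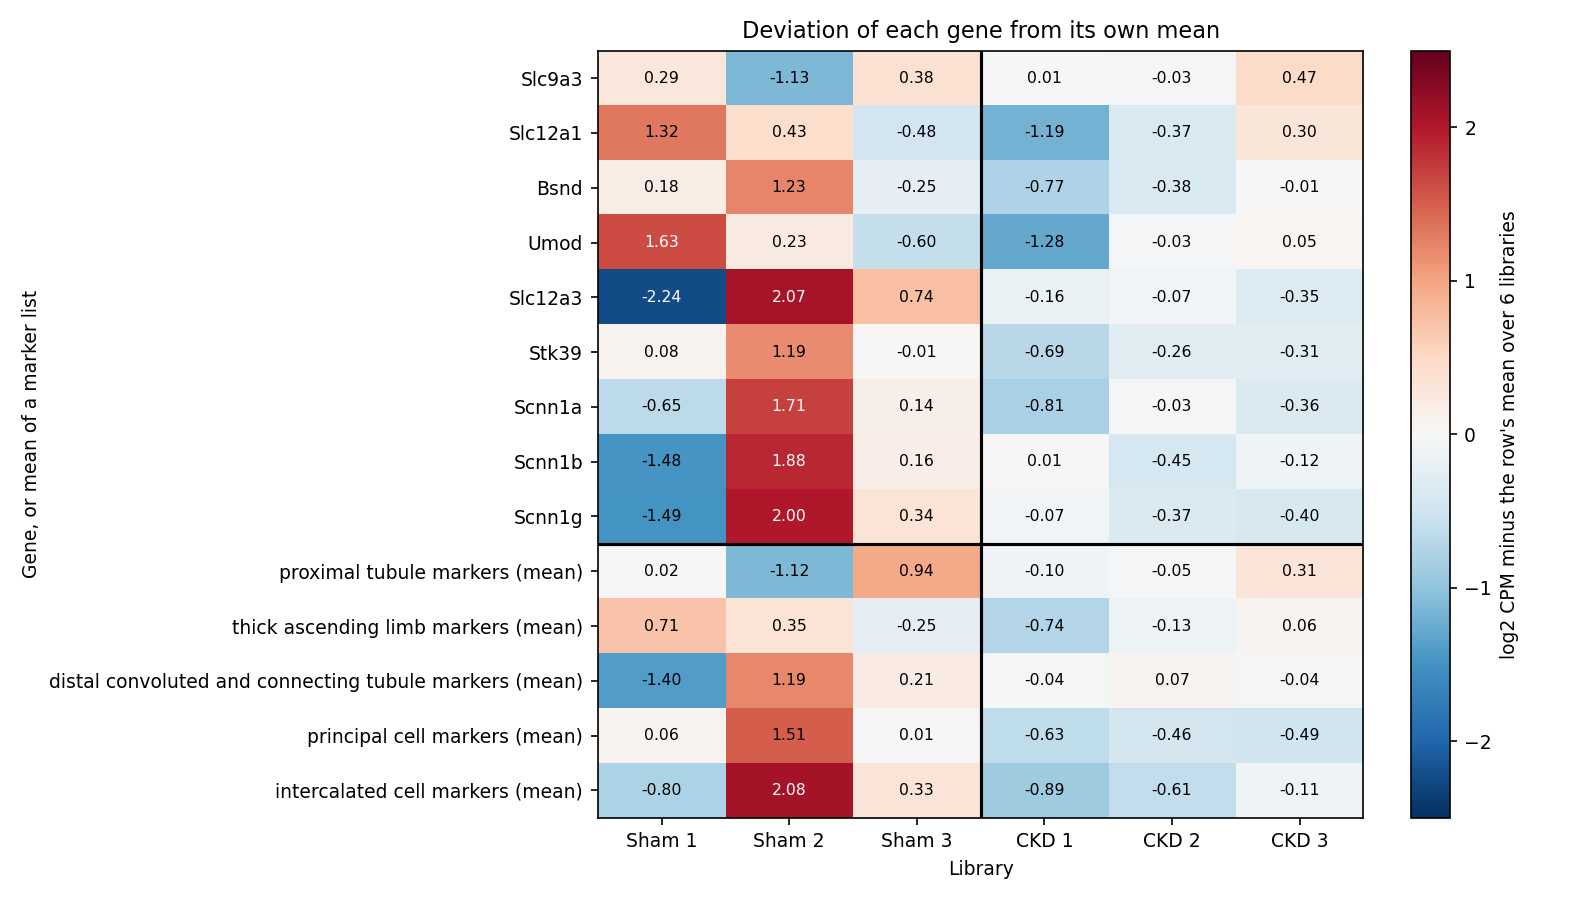
Deviation of log2 CPM from the mean over the 6 libraries (colour and printed values) for each of the 9 genes and for the mean of 5 marker lists, with libraries in columns. The widest range was that of Slc12a3, from -2.24 in Sham 1 to 2.07 in Sham 2. The CKD columns lie between -1.28 and 0.47 for the 9 genes, and CKD 1 was the lowest library for 5 of the 9.

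In the collecting duct, Scnn1a, Scnn1b and Scnn1g encode the alpha, beta and gamma subunits of ENaC, which assemble into a single channel. Scnn1a is listed on chromosome 4 from 158122962 to 158146181. Scnn1g (176304942 to 176338816) and Scnn1b (176430103 to 176484451) lie on the same strand of chromosome 1 with 91286 bases and 1 further listed gene, without a symbol, between them. Scnn1a stood at 49.9, 257 and 86.5 CPM in Sham and at 44.6, 76.7 and 61.2 CPM in CKD. Scnn1b stood at 15.8, 163 and 49.5 CPM in Sham and at 44.4, 32.4 and 40.8 CPM in CKD. Scnn1g stood at 13.5, 154 and 48.5 CPM in Sham and at 36.6, 29.7 and 28.9 CPM in CKD. In all 3 genes Sham 2 was the highest library and Sham 1 the lowest Sham library; for the beta and gamma subunits Sham 1 was the lowest of all 6.

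Log2 fold changes were -1.11 ± 0.57 for Scnn1a, -0.95 ± 0.70 for Scnn1b and -1.18 ± 0.72 for Scnn1g (edgeR adjusted p = 0.280, 0.451 and 0.360). They rested on Sham 2. Without it they were -0.20, 0.23 and 0.00, and without Sham 1 they were -1.55, -1.50 and -1.73 (edgeR adjusted p = 0.0817, 0.0884 and 0.0580).

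The beta and gamma subunits kept nearly the same proportion in every library. Counts of Scnn1g per count of Scnn1b were 0.857, 0.945 and 0.980 in Sham and 0.823, 0.914 and 0.709 in CKD, although Scnn1g alone ranged 11.4-fold among Sham libraries. The log2 difference between the groups in this ratio was -0.19 (exact permutation p = 0.2). The alpha subunit varied more against them. Counts of Scnn1b per count of Scnn1a were 0.317, 0.634 and 0.572 in Sham and 0.996, 0.423 and 0.667 in CKD, a log2 difference of 0.43 with standard deviations of 0.54 and 0.62 (exact permutation p = 0.4). In all, 17 ratios were compared, 9 against segment markers and 8 between genes, and their Benjamini-Hochberg adjusted p-values ran from 0.992 to 1.

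**Figure D3:**
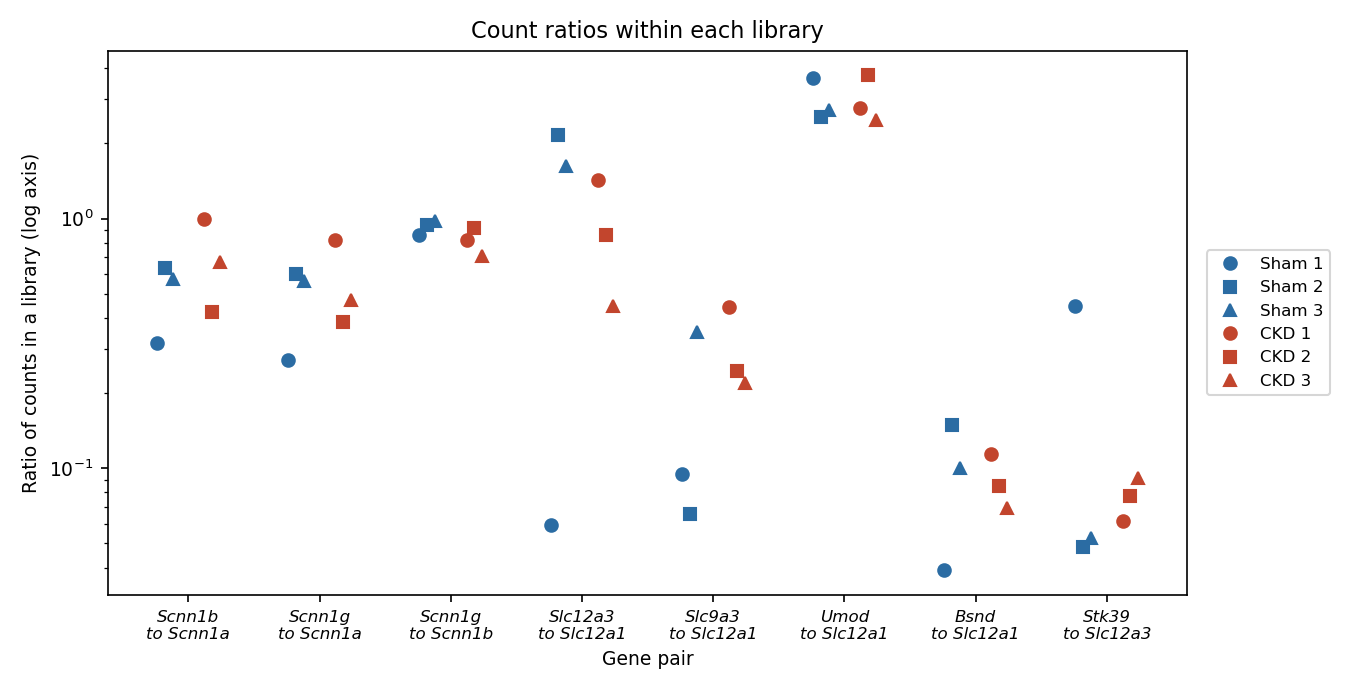
Ratio of counts of 8 gene pairs within each library (vertical log axis), with Sham in blue and CKD in red. Umod to Slc12a1 (2.49 to 3.74) and Scnn1g to Scnn1b (0.709 to 0.980) are narrow in all 6 libraries, while Slc12a3 to Slc12a1 runs from 0.0590 to 2.17.

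Principal cell markers of the collecting duct summed to 401, 1404 and 413 CPM in Sham and to 326, 261 and 223 CPM in CKD. After TMM scaling, 4 of 7 tested markers had lower CKD groups without overlap, beside 12.4% of all genes tested: Aqp2, Aqp3, Elf5 and Fxyd4. Of these Fxyd4 had the smallest p (log2 fold change -1.83 ± 0.52, edgeR adjusted p = 0.0871). As shares of all counts these 4 overlapped. Aqp2 had 3908 of 17409090 counts in Sham 1 and 4256 of 17467038 in CKD 1. The most abundant were the water channels Aqp2 (261, 1060 and 259 CPM in Sham, 205, 167 and 130 CPM in CKD) and Aqp3 (92.0, 213 and 113 CPM against 84.7, 57.7 and 52.5 CPM). Of the 7, 0 were called by edgeR and limma-voom, with 3 and 4 at an unadjusted p under 0.05 (3655 and 3638 of all 15371 genes tested). DESeq2 called 3 of the 7, beside 2497 of all genes tested. Avpr2, the vasopressin receptor of these cells, had 0 counts in each library, which allows up to 3. That bound covers counting error only, and how well the annotation captures Avpr2 was not tested. Against the mean of these markers Scnn1a, Scnn1b and Scnn1g were higher in CKD by 0.26, 0.68 and 0.49 on the log2 scale, each less than its Sham standard deviation of 0.51, 1.04 and 1.14 (exact permutation p = 0.6, 0.4 and 0.8). Without Sham 1 the differences were -0.04, 0.08 and -0.16.

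As a description, the bases before the start sites of Scnn1g, Scnn1b and Slc12a1 are given (assembly GRCr8, 5′ to 3′, ending before the first transcribed base). Their RefSeq start sites lie at or near the outer end of the gene. Any part of these bases in the patterns over libraries was not tested. Capitals mark GGGCGG, the GC box bound by Sp factors, or AGGTCA, a core of nuclear receptor sites, on either strand.
Scnn1g, chr1:185735975-185736224, plus strand: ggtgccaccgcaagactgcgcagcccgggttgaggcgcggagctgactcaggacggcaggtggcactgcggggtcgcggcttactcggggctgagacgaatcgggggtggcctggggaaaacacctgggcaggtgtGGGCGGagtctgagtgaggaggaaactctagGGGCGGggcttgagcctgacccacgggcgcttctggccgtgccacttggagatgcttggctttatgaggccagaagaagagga
Scnn1b, chr1:185861126-185861325, plus strand: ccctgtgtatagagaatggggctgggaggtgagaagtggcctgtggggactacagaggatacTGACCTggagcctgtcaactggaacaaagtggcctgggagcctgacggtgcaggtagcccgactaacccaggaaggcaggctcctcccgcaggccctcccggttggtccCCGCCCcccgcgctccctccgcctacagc
Slc12a1, chr3:132859340-132859580, plus strand: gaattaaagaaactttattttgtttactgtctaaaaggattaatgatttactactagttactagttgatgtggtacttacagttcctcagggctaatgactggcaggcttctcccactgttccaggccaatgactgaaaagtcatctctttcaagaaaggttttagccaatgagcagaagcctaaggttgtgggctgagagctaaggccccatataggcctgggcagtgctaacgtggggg

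Over windows of 250 bases before the start, a GC box was present in 4 of 8 of these genes found in the table (Slc9a3, Stk39, Scnn1b and Scnn1g) and in 32.4% of 27457 promoters. Scnn1g has it at 114 and 83 bases before the start. TATAAA, the core of the TATA box, was present in the windows of Umod and Slc12a3 (13.1% of all promoters). It lay 219 and 173 bases before the start in Umod and 32 in Slc12a3. AGGTCA was present in the windows of Bsnd and Scnn1b (13.6%), and AGAACA, a core that corticosteroid receptors bind, in those of Bsnd and Umod (17.0%). The start sites used lie 207 bases from the outer end of the gene for Slc9a3, 649 for Umod, 1418 for Stk39 and 14958 for Slc12a3. Both strands were searched and the motifs do not share letters in the windows shown. A match is a description of letters and not a binding site.

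To compare levels of different genes, CPM were divided by the authors' gene length in kilobases. Umod was first in each of the 6 libraries, with means of 1095 ± 855 in Sham and 540 ± 231 CPM per kilobase in CKD (SD, n = 3). Next in Sham came Slc12a3 (246 ± 245) and Slc12a1 (201 ± 119), and in CKD Slc12a1 (108 ± 52.5) and Slc12a3 (107 ± 10.4); these neighbours overlapped in both groups. Scnn1a, Scnn1b, Bsnd, Scnn1g and Slc9a3 followed in Sham between 38.8 and 24.1 CPM per kilobase without separation between neighbours. In CKD Slc9a3 came directly after Slc12a1 and Slc12a3, at 27.3 ± 5.53, and stood above Scnn1a (18.04 ± 4.75) in all 3 libraries without overlap. Stk39 was last of the group means in both, at 14.4 ± 7.20 and 7.48 ± 1.15. Within single libraries, the beta and gamma subunits of ENaC were last in Sham 1, Slc9a3 was last in Sham 2, and Stk39 was last in the other 4.

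**Figure D4:**
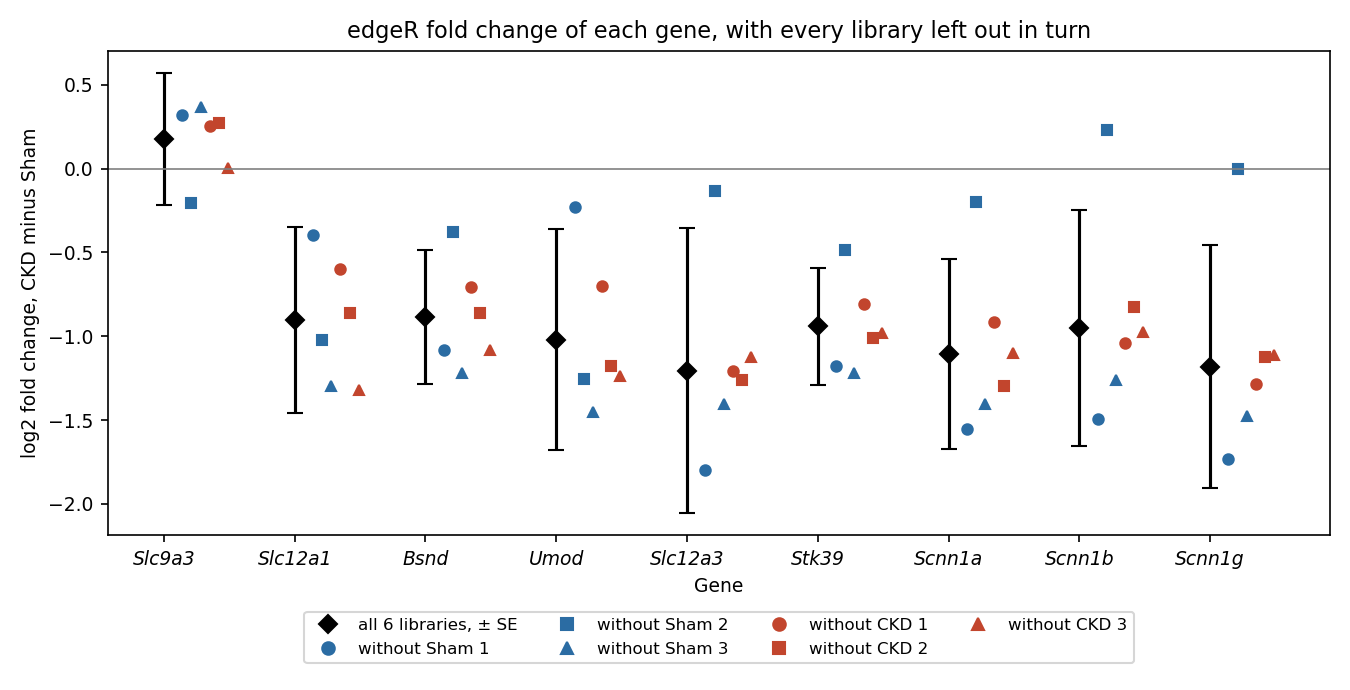
Log2 fold change (CKD minus Sham, edgeR) of each gene with all libraries (black, ± SE) and with each library left out in turn (blue for Sham, red for CKD). Leaving out Sham 2 brought Slc12a3 and the ENaC subunits to between -0.20 and 0.23, and leaving out Sham 1 brought Umod to -0.23 and Slc12a1 to -0.39.

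Partner genes, in lists of 46 genes that serve the same transport, were described with the same fit. The symbol Wnk4 matched no gene of the table and was not analysed here, and Wnk3, with at most 2.07 CPM in any library, was not tested. Of 44 tested genes 1 was called (3.82% of all genes tested), namely Usp2, which fell. DESeq2 called 7 of the 44, beside 2497 of all 15371 genes tested, and limma-voom 1, beside 195. Their median log2 fold change was -0.21, with 27 negative and 17 positive.

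The called gene belongs to the list of aldosterone and ENaC regulation. Usp2, a deubiquitinating enzyme whose USP2-45 form removes ubiquitin from ENaC, fell from 216, 183 and 201 CPM in Sham to 20.5, 38.2 and 42.0 CPM in CKD. Every CKD library was far below every Sham library, and Usp2 ranged 1.18-fold among the Sham libraries that spread the ENaC genes. Its log2 fold change was -2.57 ± 0.31 (edgeR adjusted p = 0.0278). That call was lost without Sham 2, Sham 3, CKD 1 or CKD 2 (adjusted p = 0.0552, 0.0959, 0.148 and 0.143), where the fold change stayed between -2.67 and -2.31, and with the replicate block (0.0528). After TMM scaling, another 3 of the 10 genes of this list did not overlap between groups and were lower in CKD (12.4% of all genes tested were so placed). EdgeR and limma-voom did not call these 3, and DESeq2 did. Sgk1 also passed in edgeR without a filter (adjusted p = 0.0499) and in limma-voom with library weights (adjusted p = 0.0380). Without Sham 1, Sgk1 and Nedd4l passed in edgeR (adjusted p = 0.0286 and 0.0281). Sgk1, the aldosterone-induced kinase that protects ENaC from removal, stood at 398, 651 and 1177 CPM in Sham and at 181, 183 and 281 CPM in CKD (log2 difference -1.79 ± 0.45, edgeR adjusted p = 0.0684). Nedd4l, the ubiquitin ligase that removes ENaC, stood at 128, 293 and 217 CPM against 119, 102 and 97.5 CPM (-1.002 ± 0.32, edgeR adjusted p = 0.113). Tsc22d3, the corticosteroid-induced GILZ, stood at 130, 184 and 138 CPM against 69.0, 94.2 and 99.7 CPM (-0.78 ± 0.24, edgeR adjusted p = 0.105). As shares of all counts, Nedd4l and Tsc22d3 overlapped between groups. Nedd4l had 1924 of 17409090 counts in Sham 1 and 2467 of 17467038 in CKD 1. Tsc22d3 had 1956 of 17409090 counts in Sham 1 and 1946 of 17240755 in CKD 3. Nr3c2, the mineralocorticoid receptor, differed by 0.00 ± 0.27 on the log2 scale, and the glucocorticoid-inactivating enzyme Hsd11b2 had 124, 867 and 263 CPM in Sham, the library order of the ENaC genes. Sgk1, Nedd4l, Tsc22d3, Nr3c2 and Hsd11b2 were singled out after their values were seen.

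In the other 5 lists 0 genes passed in edgeR and limma-voom, with 4 at an unadjusted p under 0.05 in each, and 3 passed in DESeq2, Slc26a7 and Kcnj10 among them. Of 6 tested genes of the WNK-SPAK pathway 3 were negative (median -0.09), with the smallest p for Cul3, the scaffold of the ligase that degrades WNK kinases (129, 103 and 139 CPM against 99.7, 98.4 and 92.2 CPM; edgeR adjusted p = 0.323). Among 6 NHE3 partners the median was -0.02 and the smallest p that of the calcineurin-like cofactor Chp1 (log2 fold change -0.40 ± 0.23, edgeR adjusted p = 0.332). Among 11 other sodium and chloride carriers the median was 0.01, and Slc26a7, an anion exchanger, had 3.80, 3.14 and 2.60 CPM in Sham and 0.772, 1.29 and 1.48 CPM in CKD (edgeR adjusted p = 0.107). Of 6 genes related to uromodulin 4 were negative, with a median of -0.12.

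**Figure D5:**
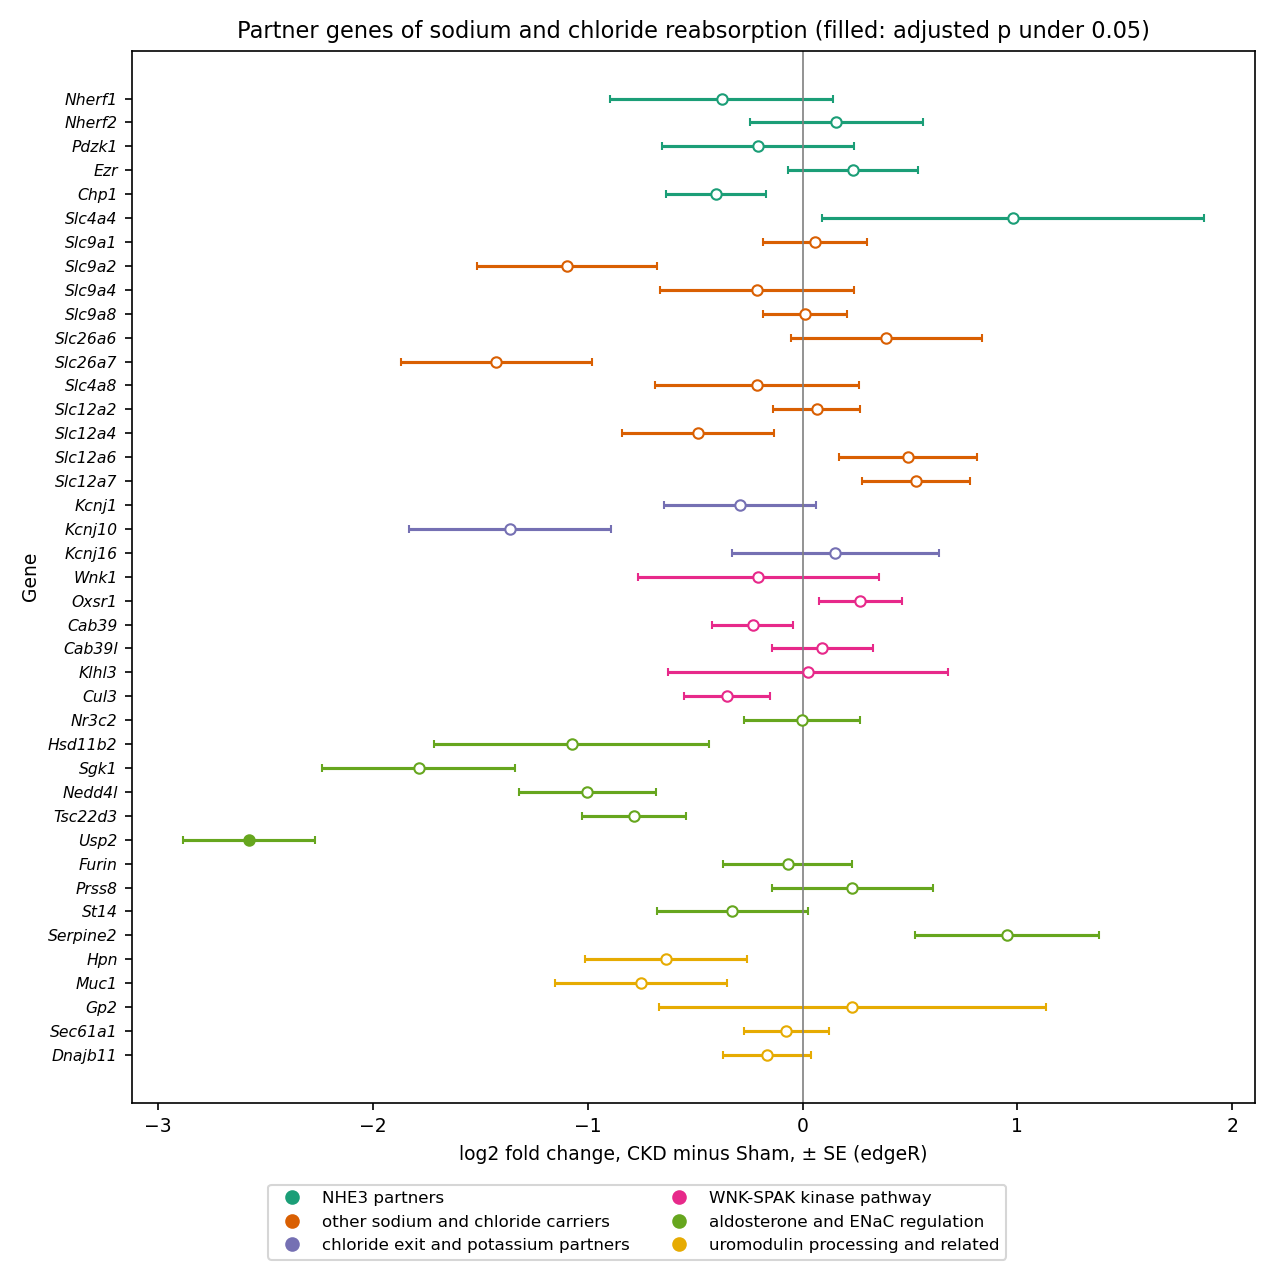
Log2 fold change ± SE (horizontal axis, CKD minus Sham, edgeR) of tested partner genes, coloured by list, filled where the adjusted p was under 0.05. Usp2 at -2.57 is the filled point, and all other points are open.

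Likeness of pattern was measured as the root mean square difference of log2 CPM after each gene was centred on its mean over the 6 libraries, among 9841 genes. Among the 9 genes the closest pairs were Scnn1b with Scnn1g (0.15), Bsnd with Stk39 (0.17) and Slc12a1 with Umod (0.24), and the most distant was Umod with Slc12a3 (1.90). Stk39 lay further from Slc12a3 (1.09), the gene it was placed with, than from Bsnd. Outside them, Slc9a3 was nearest to Fads2 (0.067) and Zfp518b (0.091), Slc12a1 to Slc5a10 (0.12) and Fmo4 (0.14), and Umod to Sim2 (0.23) and Fam118a (0.26). Bsnd was nearest to Aqp6 (0.087), a channel of intercalated cells, and Efhd1 (0.13), and Stk39 to Rps6kb2 (0.079) and Ap1m2 (0.10). Slc12a3 was nearest to Ipcef1 (0.22) and Calb1 (0.28). Scnn1a was nearest to Cwh43 (0.14) and Nrbp2 (0.17). Scnn1b and Scnn1g shared their nearest genes, Zfp709l1 (0.12 and 0.18) and Ecrg4 (0.19 and 0.21). With 6 libraries many genes come close by these measures, and they are given as a description.

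Markers of tissue injury, leukocytes and fibroblasts had higher summed levels in every CKD library than in any Sham library. The 5 tubular injury markers, among them the osteopontin gene Spp1 and the filament gene Vim, summed to 212 to 790 CPM in Sham and 2878 to 9439 CPM in CKD, and 3 of 5 rose in edgeR (Havcr1, Spp1 and Vim), beside 3.82% of all genes tested called. Limma-voom called Havcr1 and Vim, and DESeq2 called 4 of the 5. The injury marker Sox9 had a negative log2 fold change of -0.38 (adjusted p = 0.564 in edgeR). The 6 leukocyte markers summed to 223 to 742 CPM in Sham and 936 to 1763 CPM in CKD, with 2 of 6 called higher by edgeR (Ptprc and C1qa), and the 5 fibroblast markers to 64.1 to 428 CPM in Sham and 722 to 1224 CPM in CKD, with 1 of 5 called higher (Col1a1). Limma-voom called 0 in both lists, with 5 and 5 at an unadjusted p under 0.05, and DESeq2 called 5 leukocyte and 3 fibroblast markers. Intercalated cell markers summed to 427, 2878 and 825 CPM in Sham and 298 to 540 CPM in CKD, with Sham 2 again the highest. Of these 8 edgeR and limma-voom called 0, with 3 and 1 at an unadjusted p under 0.05, and DESeq2 called 3. Of the osmolyte and podocyte markers edgeR called 0, with 2 and 0 at an unadjusted p under 0.05, and DESeq2 called 2 and 0. The part of these cells in the levels of the salt transport genes was not tested.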

How the data were processed

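The authors deposited raw counts, whole numbers per gene and library, in a single table with gene lengths and coordinates; 0 columns belonged to other series. The submitters' processing notes name HTSeq 0.11.2, HISAT2 2.1.0 and fastp 0.20.1 without role or order, and Rnor_6.0 as build. The highest gene end on chromosome 1 is 260398790, and the build of the coordinates is uncertain. Strand settings and what the deposited gene length covers (the other unit used) are not given in the sources used here. No listed gene overlaps any of the 9 genes.

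Computed here: genes were kept by filterByExpr (minimum count 10, minimum total 15), scaled by TMM, and fitted with edgeR 4.0.16's quasi-likelihood model (group only, robust; limma 3.58.1, DESeq2 1.42.0 and R 4.3.3), with p-values adjusted by Benjamini-Hochberg over all 15371 genes. Log2 CPM used a prior count of 2 and count ratios 0.5. Within-library ratios were compared by exact two-sided permutation over the 6 libraries. A few partner genes that were in the fits are not reported here.

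The members and lists were chosen with earlier results of these data known. Named were the 9 genes, each called partner and the partner with the smallest p of a list, the 2 most abundant markers of each marker list as examples, and the 2 genes of most alike pattern (average log2 CPM of at least 3). Same-numbered libraries were not treated as pairs. Alternatives covered scaling, filters, tests, a block, thinning, gene removal and each library left out. Promoter sequences are RefSeq's (GRCr8); 8 of 9 genes matched.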

Additional observations from a re-analysis of the deposited data

How the results depend on the processing

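Under all 19 alternatives 0 of the 9 genes were called, while the count over all genes moved: 587 became 2228 with library totals alone (which put the median fold change over all genes at 0.41 in place of -0.01), 2497 in DESeq2, 195 in limma-voom, 10 with a replicate block, and 0 to 1711 with a library left out. No pairing of same-numbered libraries is stated. Their correlations of deviations were -0.21, 0.0045 and -0.16, and the best match of Sham 1, 2 and 3 was CKD 3, 1 and 1. Deviations within groups of 3 libraries cannot show whether the samples were paired. Called partner genes went from 1 to 2 with library totals alone, without a filter and with limma-voom library weights (chosen after seeing the data), 7 in DESeq2, 0 with the block and 0 to 6 with a library left out. The fold change of Slc9a3 was -0.058 with library weights and -0.20 to 0.37 with a library left out, and that of Scnn1b -1.50 to 0.23. No other fold change of the 9 changed sign.

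Ratios that changed sign with a library left out were Slc9a3 to its markers (-0.038 to 0.38), Bsnd (-0.56 to 0.14), Umod (-0.55 to 0.083), Scnn1a (-0.037 to 0.42, and -0.10 with the median of markers) and Scnn1g (-0.16 to 0.86) to theirs, Scnn1g to Scnn1a (-0.13 to 0.47), Slc12a3 to Slc12a1 (-1.20 to 1.40), Umod to Slc12a1 (-0.17 to 0.16), Bsnd to Slc12a1 (-0.48 to 0.49) and Stk39 to Slc12a3 (-1.02 to 0.59). The cause was not tested beyond the libraries named. With 3 libraries a group no exact test could pass 0.05.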
